A study of Bos taurus with 8 samples.

Results

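Matrix metalloproteinases and their tissue inhibitors, the TIMPs, were followed in proliferating muscle cells of beef and dairy bulls. The set comprised MMP1, MMP2, MMP3, MMP9, MMP13, MMP14, TIMP1, TIMP2 and TIMP3, taken by gene symbol. Probes were matched to symbols through the RefSeq accession that the array lists for them, and 6 of the 9 genes had a matched probe, out of 7788 gene symbols matched in all. These 6 were MMP1, MMP2, MMP9, MMP13, TIMP1 and TIMP2, with 1 probe each, and MMP3, MMP14 and TIMP3 were not analysed here.

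RNA came from primary cultures of muscle cells of the semitendinosus muscle, frozen while they were proliferating, at 80% confluence, in a medium with fetal bovine serum. The donors were 15-month-old bulls, 4 of each breed: Limousin (LIM) and Hereford (HER), which are beef breeds, and Holstein Friesian (HF), a dairy breed. Each of 8 two-colour arrays carried RNA of a beef culture in one dye and of an HF culture in the other, 4 arrays for LIM (Cy5) against HF (Cy3) and 4 for HER (Cy3) against HF (Cy5). Each comparison had a slide of its own, so that breed cannot be told apart from slide and dye within it. HF cultures served both comparisons, and which HF bull was on which array is not given in the sources used here. The cultures were enriched for myoblasts by preplating, to a purity of 60 to 70% according to the methods of the study, so other cells of muscle were present as well.

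Matrix metalloproteinases are zinc-dependent enzymes that cut the proteins of the extracellular matrix. Most are secreted as inactive proenzymes, and TIMPs bind the active enzymes and block them. In muscle, they are known for the remodelling of the matrix around fibers and for the passage of satellite cells through the basal lamina. MMP2 and MMP9 are the gelatinases, which cut denatured collagen and the collagen IV of basal laminae, whereas MMP1 and MMP13 are collagenases, which open the triple helix of fibrillar collagens. TIMP2 has an additional role, since it carries proMMP2 to MMP14 at the cell surface, where the proenzyme is activated.

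MMP2 and TIMP2 were higher than in HF cells in both beef breeds, TIMP1 was higher in LIM and did not pass in HER, MMP1 and MMP9 did not pass the test in either comparison, and MMP13 gave hardly any signal. A gene was called at a Benjamini-Hochberg adjusted p of at most 0.05 (limma, over all 17622 probes tested) with a fold change no smaller than 1.3. Among the LIM arrays, 3 of the 6 genes were called higher and 1 lower, where 34.4% of all probes were called, 16.1% higher and 18.3% lower. In HER, 2 genes were called higher and none lower, against 24.4% of the probes, 10.4% higher and 14% lower. The median log2 ratio of the 6 genes was 1.15 in LIM and 0.59 in HER, whereas the median over all probes tested was -0.01 and -0.06. With calls this frequent on the whole array, a called member does not set the family apart, and the sizes of the ratios are given for each gene.

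**Figure D1:**
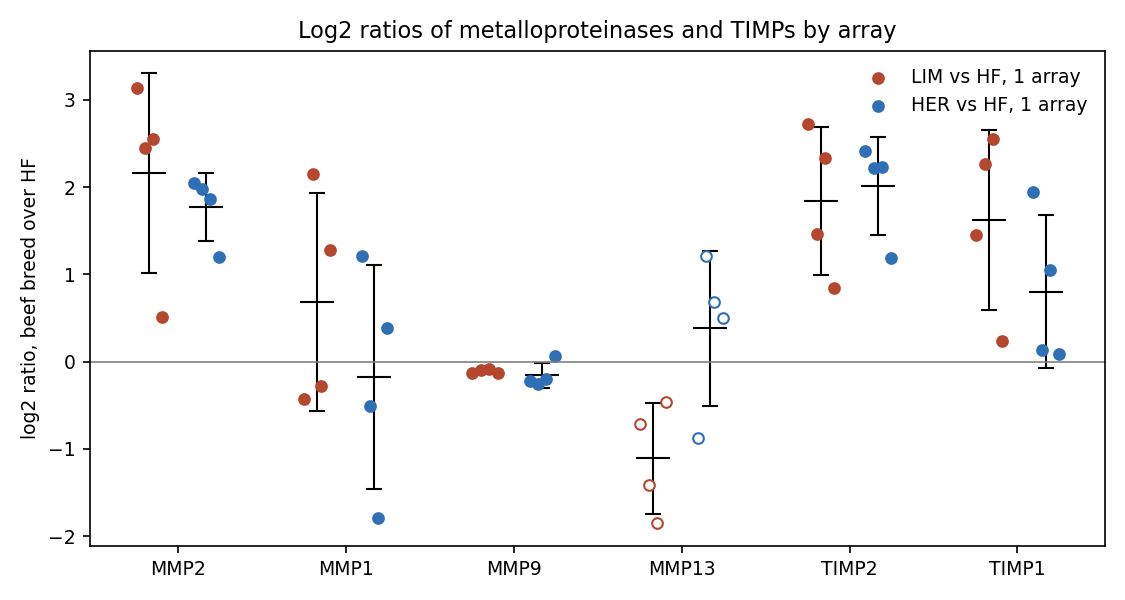
Log2 ratio of beef breed over HF (vertical axis) for the 6 genes with a matched probe, 1 point per array. The mean and SD of the 4 arrays of each comparison are in black, and open points mark MMP13, which was hardly above background. MMP2 and TIMP2 lie above 0 on all 8 arrays, MMP9 close to 0, and MMP1 on both sides of it.

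MMP2, gelatinase A (probe A_73_112336, NM_174745), had log2 ratios of 3.14, 2.45, 2.55, and 0.51 on LIM arrays 1 to 4. On HER arrays 1 to 4 the ratios were 2.05, 1.98, 1.87, and 1.20. All 8 values were above 0, and in both comparisons the array of replicate 4 was the lowest. The mean in LIM was 2.16 ± 1.14 (SD, n = 4 arrays), a 4.47-fold higher level than in HF (limma adjusted p = 0.00329). In HER the mean was 1.77 ± 0.39 (SD, n = 4 arrays), a 3.42-fold difference (limma adjusted p = 0.0135). This HER call was lost without HER replicate 1 (1.68, limma adjusted p = 0.0611) or without HER replicate 2 (1.71, limma adjusted p = 0.0591).

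TIMP2 (probe A_73_108874, NM_174472) followed closely. Its log2 ratios were 2.72, 1.46, 2.33, and 0.84 on LIM arrays 1 to 4, and 2.42, 2.22, 2.23, and 1.19 on HER arrays 1 to 4. Again all 8 were above 0 and replicate 4 was the lowest in each comparison. The mean was 1.84 ± 0.85 (SD, n = 4 arrays) in LIM, a 3.58-fold higher level than in HF (limma adjusted p = 0.00328). It was 2.01 ± 0.56 (SD, n = 4 arrays) in HER, a 4.04-fold higher level (limma adjusted p = 0.00558). Both calls held whichever single array was left out, with adjusted p of at most 0.0203 in LIM and 0.0307 in HER.

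TIMP1 (probe A_73_120461, NM_174471), a broad inhibitor of secreted metalloproteinases that also stimulates the growth of many cells, varied more between arrays. In LIM its log2 ratios were 1.45, 2.26, 2.55, and 0.24, and in HER they were 1.94, 0.13, 1.05, and 0.09, each in the order of replicates 1 to 4. All 8 were above 0, but 3 of them, LIM replicate 4 and HER replicates 2 and 4, lay within 0.24 of it. The LIM mean was 1.62 ± 1.03 (SD, n = 4 arrays), a 3.08-fold higher level (limma adjusted p = 0.0171). That call was lost without LIM replicate 2 (1.41, limma adjusted p = 0.07) or without LIM replicate 3 (1.32, limma adjusted p = 0.0795), and TIMP1 did not pass the methods' t-test at its own threshold either. In HER the mean of 0.80 ± 0.88 (SD, n = 4 arrays) did not pass (limma adjusted p = 0.181), with a 95% interval from -0.14 to 1.75.

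Because the dyes were reversed between the comparisons, a dye effect particular to a probe cancels in the mean of the LIM and HER ratios, named here the beef effect. Of all probes, 38.1% were called for the beef effect, 17.7% higher, and 3 of the 6 genes were, all higher. The beef effect was 1.97 (SE 0.26) for MMP2, 3.91-fold, with a limma adjusted p of 0.000647. For TIMP2 it was 1.93 (SE 0.22), 3.8-fold, with a limma adjusted p of 0.000387. For TIMP1 it was 1.21 (SE 0.29), 2.32-fold, with a limma adjusted p of 0.0098. With the 2 arrays of one replicate number averaged first, which left 4 values per gene, the limma adjusted p was 0.00828 for MMP2, 0.00651 for TIMP2, and 0.0286 for TIMP1. The TIMP1 call was lost when both arrays of replicate 3 were left out (1.02, limma adjusted p = 0.0633).

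The level in each channel gives the beef and the HF side of a ratio separately, though without a further reference it cannot tell which culture changed. Levels are the log2 processed signal of a probe minus the median of that channel over the probes tested, so that 0 is the middle of the array. They are read within a gene only, except where the levels of a list are summed. MMP2 stood at 6.25, 5.76, 6.03, and 5.33 in LIM cells and at 3.15, 3.33, 3.50, and 4.84 in the HF cells beside them, replicates 1 to 4. On the HER arrays it stood at 5.96, 6.19, 5.63, and 6.43 in HER cells and at 3.94, 4.22, 3.75, and 5.24 in HF cells. The beef and HF channels did not overlap in either comparison. How many of all probes show no overlap was not counted, so this does not set MMP2 apart. Barely detected MMP13 did not overlap in LIM either (-6.12 to -5.15 in LIM cells, -4.68 to -4.25 in HF cells). For MMP2, the HF channel of replicate 4 was the highest HF channel on both slides. The MMP2 beef channel of replicate 4 was the lowest for LIM and the highest for HER.

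TIMP2 levels were 8.66, 8.06, 8.20, and 8.29 in LIM cells and 5.97, 6.62, 5.89, and 7.46 in the HF cells of the same arrays. In HER cells they were 8.75, 9.13, 8.44, and 8.71, against 6.37, 6.92, 6.19, and 7.53 in HF cells. Here too the groups did not overlap, and the HF channel of replicate 4 was the highest in both. The spread was narrower in the beef channels (SD 0.26 for LIM and 0.28 for HER) than in the HF channels beside them (SD 0.73 and 0.61, n = 4 each), a difference that was not tested.

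TIMP1 levels were 6.36, 7.12, 6.77, and 5.99 in LIM cells against 4.94, 4.88, 4.24, and 5.76 in HF cells, without overlap. HER cells had 7.59, 5.50, 5.45, and 5.83 and the HF cells beside them 5.68, 5.38, 4.38, and 5.76. These overlapped, since a single HER culture, replicate 1, lay far above the HF range. Over all 17622 probes, HF channels with the same number deviated together from their slide's mean (r = 0.66, 0.62, 0.68, and 0.82 for numbers 1 to 4), whereas differently numbered HF channels gave r from -0.38 to 0.02. These correlations are a description across probes, which are not independent replicates.

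**Figure D2:**
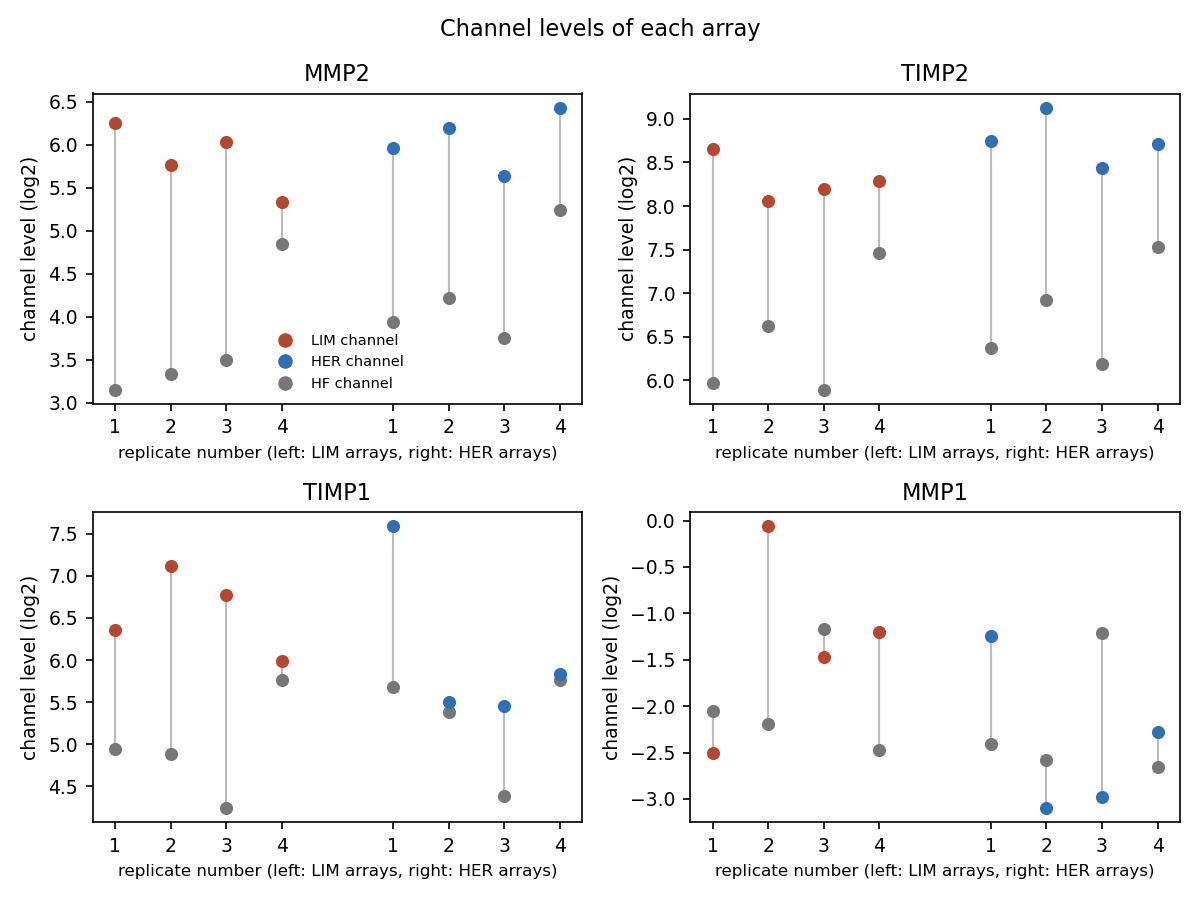
Channel level (log2 processed signal minus the channel's median, vertical axis) of 4 genes for each array, by replicate number, with LIM arrays on the left and HER arrays on the right of each panel; a grey line joins the 2 channels of an array. For MMP2 and TIMP2 the HF point of replicate 4 is the highest HF point on both slides (4.84 and 5.24, 7.46 and 7.53), and no HF point reaches a beef point.

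Leaving out replicate 4 of both comparisons raised the LIM ratio of MMP2 to 2.71 (SE 0.16) and that of TIMP1 to 2.08 (SE 0.36). The HER ratio of TIMP2 became 2.29 (SE 0.23), and the number of genes called stayed at 4 in LIM and 2 in HER. Other omissions lowered it: without both arrays of replicate 1 it was 4 in LIM and 1 in HER. Without replicate 2 it was 2 and 0, and without replicate 3 it was 2 and 1. MMP2 lost its HER call each time (limma adjusted p = 0.0585, 0.0935, and 0.0705).

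MMP1, interstitial collagenase (probe A_73_100846, NM_174112), differed in sign between cultures of one breed. Its log2 ratios were -0.43, 2.15, -0.28, and 1.28 in LIM and 1.21, -0.51, -1.79, and 0.39 in HER. It was higher than in HF on 2 of 4 arrays in each comparison. The mean was 0.68 ± 1.25 (SD, n = 4 arrays) in LIM, with a 95% interval from -0.56 to 1.92 and a limma adjusted p of 0.354. In HER it was -0.17 ± 1.28 (SD, n = 4 arrays), with an interval from -1.41 to 1.06 and a limma adjusted p of 0.832. These intervals leave room for a change of more than 2-fold either way in HER, so that the 4 cultures do not settle the direction. The channel levels of MMP1 ran from -2.51 to -0.06 in LIM and from -3.10 to -1.24 in HER, and from -2.47 to -1.17 and from -2.66 to -1.21 in the HF channels beside them.

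MMP9, gelatinase B (probe A_73_119412, NM_174744), which is made largely by leukocytes, had the ratios closest to 0. They were -0.13, -0.09, -0.08, and -0.13 in LIM and -0.22, -0.26, -0.20, and 0.06 in HER. The probe was well above background in all 16 channels, at levels from -1.61 to -0.89, below the middle of the array. The mean was -0.10 ± 0.03 (SD, n = 4 arrays) in LIM and -0.16 ± 0.15 (SD, n = 4 arrays) in HER (limma adjusted p = 0.426 and 0.255). The 95% interval of the beef effect, from -0.29 to 0.03, holds no change as large as that of MMP2. The interval of the MMP2 beef effect ran from 1.37 to 2.57.

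MMP13, collagenase 3 (probe A_73_103048, NM_174389), stood at the edge of detection. Of its 32 spot readings, 4 were well above background. It counted as detected in 4 of 16 channels, 1 of LIM, none of HER, and 3 of HF, each time in 1 of its 2 spots, and this just met the minimum of 4 channels for being tested. The ratios were -0.71, -1.41, -1.85, and -0.46 in LIM and -0.87, 1.21, 0.69, and 0.50 in HER. The LIM mean of -1.11 ± 0.64 (SD, n = 4 arrays) passed the test (limma adjusted p = 0.0335), but it was -0.14 (limma adjusted p = 0.101) from intensities corrected with normexp and -0.22 (limma adjusted p = 0.0862) without background correction. Where both spots had to be above background, MMP13 was not tested at all. The call was also lost without LIM replicate 1, 2, or 3 (-1.24, -1.01, and -0.86), and no fold change is given for it.

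The difference between LIM and HER was tested in the same fit, where 0.233% of all probes were called, and none of the 6 genes was. LIM minus HER was 0.39 for MMP2 (95% interval -0.81 to 1.59), 0.82 for TIMP1 (-0.52 to 2.16), and -0.18 for TIMP2 (-1.20 to 0.84). It was 0.85 for MMP1 (-0.90 to 2.61) and 0.05 for MMP9 (-0.26 to 0.36). MMP13 gave -1.49, with an unadjusted p of 0.0132 and a limma adjusted p of 0.209, and was the single member with an unadjusted p under 0.05. TIMP1 was thus called in LIM and not in HER without a difference between them passing the test. This contrast also holds the difference between the slides and between the dye orientations, which cannot be told apart from breed.

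MMP2 and TIMP2 had the most alike profiles of the family. The root mean square difference of their log2 ratios over the 8 arrays was 0.45, against 1.02 for MMP2 and TIMP1 and 1.11 for both TIMPs. Among 6807 tested gene symbols, those closest to MMP2 outside the family were CTSF (0.26), a lysosomal cysteine protease, ARSA (0.32), the lysosomal arylsulfatase A, and SERPINF1 (0.32), a secreted serpin. Closest to TIMP2 were PLOD3 (0.13), a lysyl hydroxylase and glycosyltransferase of collagen, EFEMP2 (0.20), the elastic fiber protein fibulin-4, and PIGS (0.28), a subunit of the enzyme that attaches membrane anchors. The 8 ratios share HF channels and slides, and this is a description only.

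The other genes of extracellular proteolysis were taken from lists by role. From them 20 genes are named, 18 of which were picked because both comparisons called them, so that their calls are a description. MMP15, PLG, CST3, CTSD, and SPARC kept both calls whichever single array was left out, and the other 13 lost at least 1 of their calls in this way. The counts of each list, which are over all its tested genes, stand beside the 16.1% of all probes called higher and 18.3% called lower in LIM, and the 10.4% and 14% in HER.

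Of other metalloproteinases and membrane-bound inhibitors, MMP15 and RECK were tested. MMP15, a membrane-type enzyme like MMP14, was higher in LIM by 0.85 (SE 0.16) and in HER by 0.91 (SE 0.16). RECK, an inhibitor anchored in the cell membrane, had a ratio of 1.35 in LIM (limma adjusted p = 0.00933) and 0.35 in HER (limma adjusted p = 0.411), with single HER arrays between -0.02 and 0.75. In the ADAM and ADAMTS list, 1 of 8 tested genes was higher and 1 lower in LIM, and 1 was higher in HER. The list's median was -0.14 in LIM and 0.06 in HER. The gene called higher in both was ADAMTS2, which removes the N-propeptide of procollagen, at 1.52 (SE 0.40) and 1.57 (SE 0.40). It lost the LIM call without LIM replicate 1, 2, or 3 and the HER call without HER replicate 1, 2, or 3.

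In the plasminogen system, whose protease plasmin can activate several proMMPs, 4 of 9 tested genes were higher and 1 lower in each comparison, with medians of 0.69 in LIM and 0.45 in HER. PLAU, urokinase, was higher by 1.42 (SE 0.26) in LIM and 1.00 (SE 0.26) in HER, above 0 on all 8 arrays. Its receptor PLAUR was not called, at -0.10 (SE 0.38) and -0.82 (SE 0.38). S100A10, a plasminogen receptor subunit, was higher by 0.81 and 0.78. PLG itself, chiefly a liver product, was higher by 2.08 in LIM and 2.74 in HER, though its probe was well above background in only 5 of the 8 HF channels. The inhibitor SERPINE2 (protease nexin-1) was lower in both, at -0.84 and -1.11, with all 8 arrays below 0.

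The cathepsins and cystatins had the highest medians of the proteolysis lists, 1.94 in LIM and 1.83 in HER. Of 7 tested genes, 6 were higher in LIM and all 7 in HER, beside 16.1% and 10.4% of all probes. CST3, cystatin C, which inhibits cysteine cathepsins, was higher by 3.15 (SE 0.38) in LIM and 2.53 (SE 0.38) in HER. CTSB, a cysteine cathepsin, had 2.54 and 2.42, CTSV, another, had 1.94 and 1.83, and CTSD, the aspartic one, had 2.03 and 1.70. As for MMP2, their lowest ratio was that of replicate 4 in both comparisons.

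Among partners in activation and induction, 2 of 6 tested genes were higher in each comparison and none lower, with medians of 0.85 and 0.63. SPARC, a collagen-binding matrix protein, was higher by 2.79 (SE 0.30) and 2.29 (SE 0.30). BSG, basigin, an inducer of metalloproteinases on the cell surface, was higher by 1.63 and 1.20, and its HER call was lost without any 1 of 7 of the 8 arrays. The AP-1 and ETS factors, which bind the promoters of several MMP genes, had 3 of 9 tested genes lower in LIM and 2 in HER and none higher in either, with medians of -0.23 and -0.07. For the beef effect 1 was called higher, FOS, at 0.77 (limma adjusted p = 0.00922), and 2 lower; FOS is named after its values were seen. FOSB had -1.95 and -1.10, and JUNB had -1.23 and -1.07.

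Of 11 tested cytokines and growth factors that are known to act on MMP or TIMP genes, 2 were higher and 2 lower in LIM, and 2 higher and 6 lower in HER, with medians of 0.18 and -0.75. TGFB2 was higher (1.36 and 1.26), as was CCN1, a matricellular protein (0.92 and 0.84). TGFB3 (-1.22 and -0.90) and OSM, oncostatin M, which induces TIMP1 in many cells (-1.38 and -0.75), were lower. A second probe of TGFB3 gave -0.54 in LIM and -1.23 in HER. The HER calls of FOSB, JUNB, TGFB2, TGFB3, OSM, and CCN1 were each lost without at least 1 HER array.

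**Figure D3:**
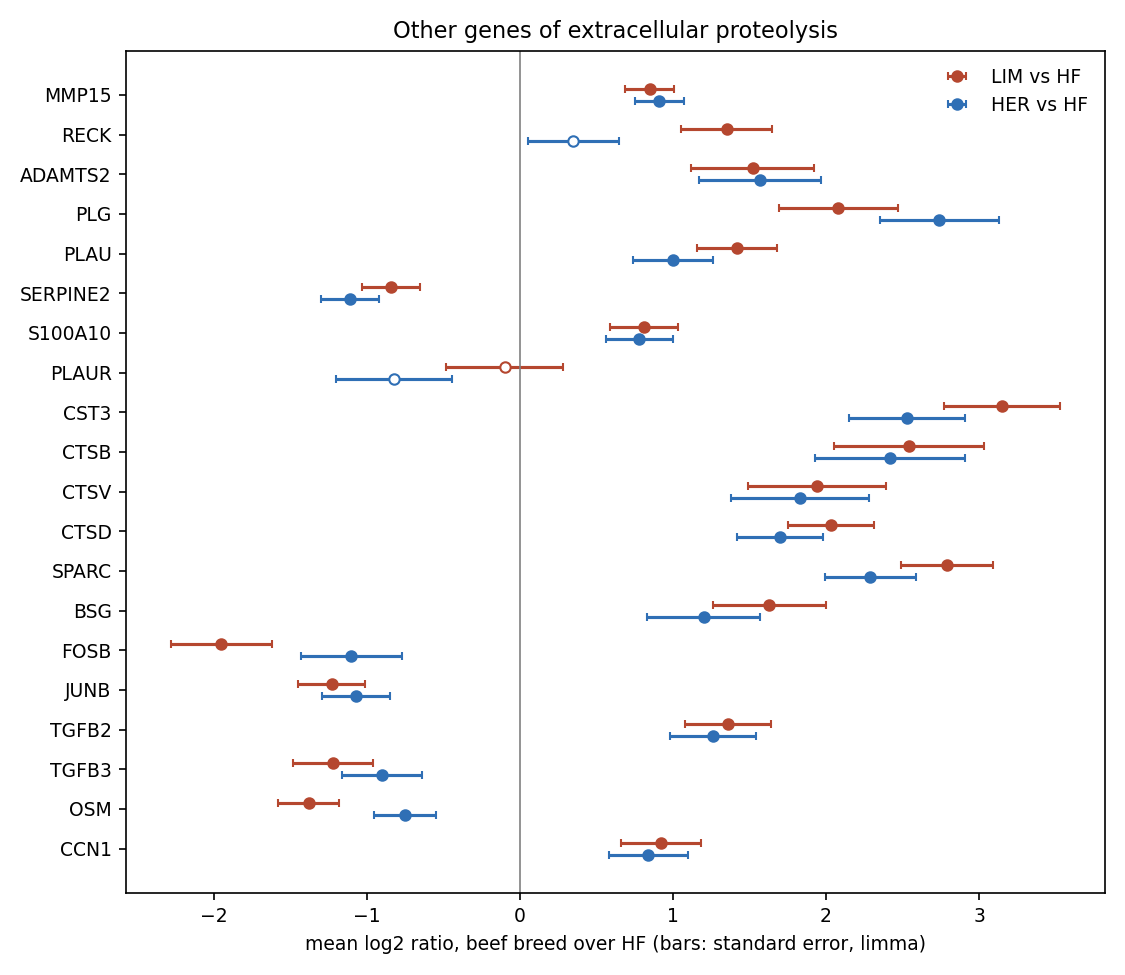
Mean log2 ratio of beef breed over HF with its standard error (horizontal axis) for 20 other genes of extracellular proteolysis and its control, 4 arrays per comparison; filled points were called and open points were not. In LIM, CST3 (3.15) lies farthest to the right and FOSB (-1.95) farthest to the left, and in HER, PLG (2.74) and SERPINE2 (-1.11); 18 of the genes were picked for calls in both comparisons, which share HF cultures.

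Markers of the cells that such cultures can hold moved as well. Of 7 tested satellite cell and myoblast genes, 5 were higher in each comparison (medians 2.04 in LIM and 1.40 in HER), beside 16.1% and 10.4% of all probes, among them desmin (DES, 2.91 and 2.47) and CDH15 (2.56 and 2.19). PAX7 had no matched probe. Of 10 fibroblast genes, 5 were higher and 1 lower in LIM, and 5 higher and 2 lower in HER. The LIM count includes DCN (1.89), whose second probe gave -0.40 in LIM and -0.29 in HER. The collagen genes COL1A1 (2.13 and 2.30), COL1A2 (2.67 and 2.43), and COL3A1 (3.00 and 2.37) were higher, whereas PDGFRA, a receptor that marks fibroblasts and their progenitors in muscle, was lower (-1.48 and -1.36). TCF21 was called lower in HER only (-0.57 and -1.69). The summed level of a list is the log2 of the levels of its tested genes added on the linear scale. Its brightest probes carry it, so it need not show lower genes such as PDGFRA. For the fibroblast list it ran from 9.29 to 10.16 in LIM and from 9.49 to 10.11 in HER. In the HF channels it ran from 6.76 to 8.63 and from 7.09 to 8.66. For the myoblast list it ran from 6.14 to 7.71 and from 6.58 to 7.54 in beef cells, and from 4.72 to 6.71 and from 5.01 to 6.69 in HF cells. The HF channel of replicate 4 was the highest for both sums on both slides, as for MMP2, TIMP1, and TIMP2. This was not limited to these lists. The same channel was the highest for the adipocyte sum, the smooth muscle and pericyte sum, and several but not all proteolysis lists. For the macrophage and endothelial sums it was the HF channel of replicate 3. The part of these cell types in the ratios of MMP2, TIMP1, and TIMP2 was not tested, and in such bulk cultures fewer cells of a type and less RNA per cell cannot be told apart.

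Of the other lists, 1 of 3 tested macrophage and leukocyte genes was higher in each comparison (CD68, 0.68 and 0.94), while AIF1 and ITGAM, which define such cells, failed the filter on dim probes. The summed macrophage level overlapped between beef (-0.79 to 0.23 in LIM, -1.66 to -0.57 in HER) and HF channels (-1.08 to -0.27 and -1.10 to -0.49). None of 2 endothelial genes was called, with sums from -1.25 to 2.52 in LIM, -1.65 to 2.26 in HER, and -1.17 to 1.00 in HF. Of 3 adipocyte genes 1 was higher in each comparison (PLIN1). The adipocyte sums ran from 1.63 to 3.80 in LIM and 1.06 to 2.71 in the HF channels beside them. On the HER arrays they ran from 0.72 to 1.72 in HER and 0.84 to 2.54 in HF. Of 3 smooth muscle and pericyte genes 1 was higher in LIM and 2 in HER. Their sums overlapped in LIM (8.47 to 9.32, HF 7.05 to 8.64). In HER they lay above the HF channels (9.37 to 9.65, HF 8.14 to 8.78).

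**Figure D4:**
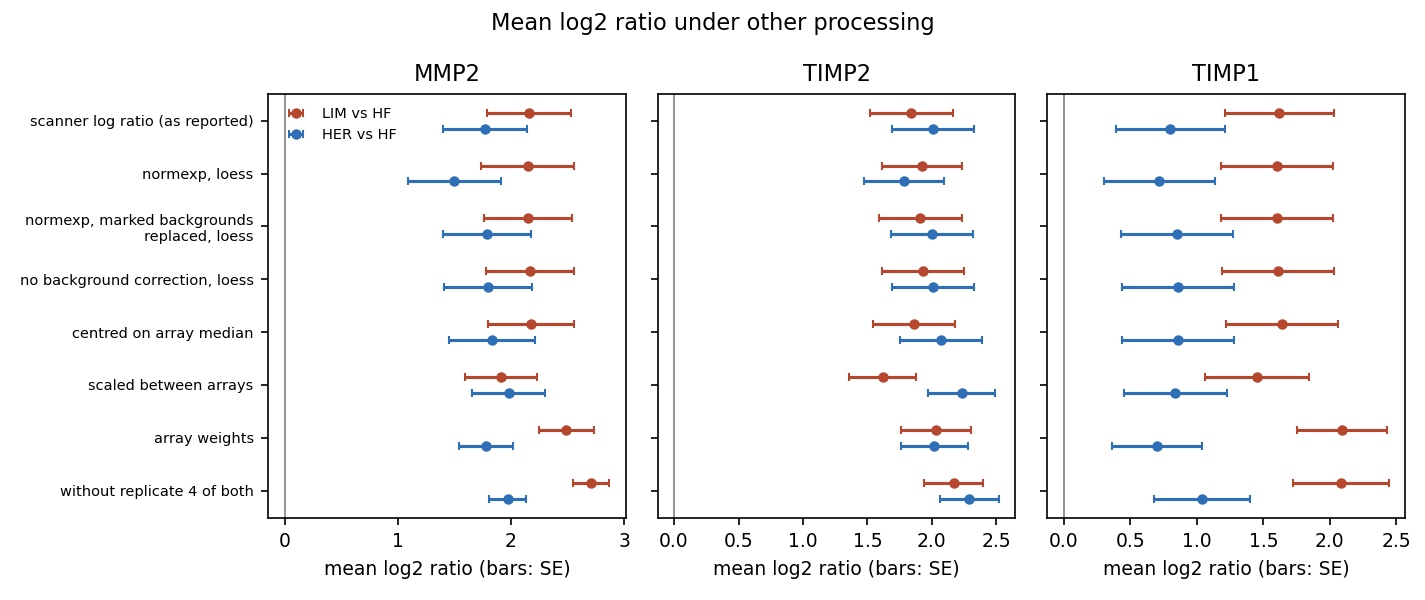
Mean log2 ratio with its standard error (horizontal axis) of MMP2, TIMP2, and TIMP1 in LIM and HER under 7 ways of processing all 8 arrays and, in the last row, without replicate 4 of both comparisons. All means shown lie above 0, and the HER values of TIMP1 are the lowest, between 0.70 and 0.86 with all arrays and 1.04 in the last row. Means without the other replicates are not shown.

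When the processing was changed, the ratios of the 3 genes moved from the values given above by less than their SD between arrays. Over 16 settings without an array left out, MMP2 ranged from 1.91 to 2.49 in LIM and from 1.50 to 1.98 in HER. TIMP2 ranged from 1.62 to 2.03 and from 1.78 to 2.23, and TIMP1 from 1.45 to 2.09 and from 0.70 to 0.86. Many of these settings changed only the filter, the threshold, or the test, which cannot move a mean. The ranges therefore reflect mainly the background, normalization, and array weight settings. With normexp on the backgrounds as measured, MMP2 and TIMP2 were not called in HER (limma adjusted p = 0.18 and 0.16), in a fit that called 0 of all probes there.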

How the data were processed

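The authors deposited Feature Extraction 10.7.3.1 output for each array, namely red and green intensities of spots and local backgrounds, and the log10 of red over green that this software made after subtracting background and normalizing the dyes. The deposited series table holds identical log10 values. They were turned to log2 beef breed over HF, with the sign turned for HER (Cy3), and averaged over the spots of a probe without control and outlier spots. No saturation was marked. The test covered 17622 of 21475 probes: a probe needed 4 or more of the 16 channels well above background, and a channel counted where 1 or both of its 2 spots were. A stricter rule on both spots had been looked at first. Between 68.8% and 85.2% of probes were well above background in a beef channel and 73.8% to 78% in an HF channel, and the number of arrays limits the precision.

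All 8 arrays were fitted together with limma 3.58.1 in R 4.3.3 (lmFit, eBayes), with a mean for LIM and one for HER. P-values measure the spread between arrays. Names came through RefSeq accessions (8297 probes, assembly ARS-UCD2.0), and the brightest probe stood for a gene with several. Second probes of ETV5 and DCN had another sign in at least 1 comparison. No probe sequences or coordinates were used. Beyond the family, up to 4 genes a list called in both comparisons were named, with PLAU, PLAUR, and RECK in any case, and the 3 genes nearest to MMP2 and to TIMP2. FURIN had no matched probe, and 1 gene of the plasminogen list is not reported here. Members, lists, and tests were chosen with earlier results of these data known. The fit was tested on simulated data with independent noise on each array. That test could not cover dependence between same-numbered arrays. Alternatives covered background, normalization, filters, thresholds, the methods' t-test, array weights, a replicate block, and left-out arrays.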

Additional observations from a re-analysis of the deposited data

Results flagged for a closer look

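In 8 groups of 4 arrays, 1 array lay far from the other 3 by Dixon's criterion, which chance meets in about 1 of 20 groups, and 52 groups were looked at. The groups are genes on the same arrays and are not independent, so this rate cannot test their number. Of the family, the HER array of replicate 4 was low for TIMP2 (1.19). The same array was low for MMP15 (0.45) and CTSV (0.56). The LIM array of replicate 4 was low for ADAMTS2 (-0.27), CTSB (0.46), CTSV (0.14), and BSG (0.00). PLG was high on HER replicate 3 (4.29). Of these 8 values, 7 came from arrays of replicate 4, where the HF channel held the highest TIMP2 level of its slide. HF levels of the other genes are not given here, and the part of the HF cultures in these values was not tested.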

How the results depend on the processing

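MMP2, TIMP1, and TIMP2 kept their sign in both comparisons under every alternative run. Alternatives in filter, threshold, test, or replicate block could not change a mean ratio, so they say nothing about the sign. The count of members called was 4 in LIM, 2 in HER, 3 for the beef effect, and 0 for LIM minus HER. It became 0 in HER with normexp and loess, 0 in LIM and 0 in HER by the methods' t-test after Benjamini-Hochberg adjustment (at its own threshold 3 in LIM, namely MMP2, TIMP2, and the barely detected MMP13 but not TIMP1, and 2 in HER), and 1 for LIM minus HER at an unadjusted limma p. With arrays left out it ranged from 2 to 4 in LIM, 0 to 2 in HER, and 2 to 3 for the beef effect. HER had 0 without both arrays of replicate 2, where TIMP2 had an adjusted p of 0.0547, and LIM had 2 without LIM replicate 2 or 3. The cause of these changes was not tested.

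The HER ratio of MMP1 turned to 0.19 with normexp and loess and to 0.36 without replicate 3 of HER alone or of both, in a range from -0.64 to 0.36 over left-out arrays. LIM minus HER changed sign for MMP2 when scaled between arrays (-0.07), for MMP9 with normexp and loess (-0.02), and for TIMP2 with normexp and loess (0.14) and array weights (0.01). With arrays left out, TIMP2 ranged from -0.47 to 0.16, above 0 without LIM replicate 4 (0.16) and without both arrays of replicate 2 (0.02). The LIM ratio of PLAUR became 0.14 without replicate 1 and 0.06 without replicate 3, of LIM alone or of both, in a range from -0.43 to 0.14.

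With the replicate number as a block, 3 members were called in LIM, 2 in HER, 3 for the beef effect, and 0 for LIM minus HER, since MMP13 lost its LIM call (adjusted p = 0.0634). Deviations of same-numbered ratios correlated at -0.24, 0.13, 0.30, and 0.54, and as 1 was not above 0.1 the block was kept as an alternative. The HF channels of a number did deviate together (r from 0.62 to 0.82), so same-numbered arrays may not be independent; with them averaged, 3 members were called for the beef effect. Leaving out both arrays of a number, averaging them, and the filter on both spots were chosen after seeing the data. A mean over several probes of a gene was not run, as each member had 1 probe.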
